A study of Mus musculus with 6 samples.

Results

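Collagen genes were followed in the messenger RNA of a newborn mouse epidermal cell suspension, compared between 3 libraries labelled Znf750 cKO, a knockout of Znf750 per the series' design, and 3 libraries labelled control. The members were all genes whose Ensembl identifier maps to a symbol of the form Col, digits, a, digits, other than Col17a1, which gave 43 of the 55487 genes listed. They comprised 11 fibrillar collagens, 9 collagens of basement membranes and 23 others. All 6 libraries came from back skin at postnatal day 0, and the labels give the same age and tissue to both groups. Per the labels, the epidermis was freed from the dermis with dispase, brought into suspension with trypsin and not sorted by any step named. Strain, the alleles of the control mice, any Cre driver and the number of animals per library are not given in the labels. Nothing in the labels says that replicates came from separate animals, so p-values measure the spread between these samples.

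Collagens are matrix proteins built from 3 chains wound into a triple helix. Fibrillar collagens (types I, III and V among others) form the fibres of the dermis and are mainly products of fibroblasts. Type IV collagen forms the sheet-like network of basement membranes, type VII forms the anchoring fibrils that tie the epidermis to the dermis, and types XV and XVIII are proteoglycan collagens of basement membrane zones. Basal keratinocytes themselves make much of the collagen of the junction with the dermis. Chains need proline and lysine hydroxylation and chaperones in the endoplasmic reticulum, are trimmed and crosslinked outside the cell, and are bound by integrins and other receptors.

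The level unit is FPKM, the fragments assigned to a gene divided by transcript length and by the fragments mapped in the library, so levels of different genes can be set side by side per length. Changes are log2 differences of FPKM + 1, Znf750 cKO minus control. "Rose" and "fell" are kept for genes that passed limma at an adjusted p (Benjamini-Hochberg) under 0.05 over the 13688 genes with at least 1 FPKM in at least 3 libraries. Summed over the 55487 genes, FPKM ran from 703726 to 770835 per library, and steps in the low values place the depth between an estimated 21450000 and 35350000 reads. The targeted gene, Zfp750, had control values of 44.8, 32.0 and 34.9 FPKM and knockout values of 0.99, 0.83 and 1.47 FPKM, and the groups did not overlap. Over all tested genes 577 (4.22%) passed, of which 152 (1.11%) rose and 425 (3.1%) fell, and the groups did not overlap in 28% of tested genes. Rescaling the libraries by median ratios gave 258 that rose and 295 that fell.

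To show the regulatory DNA of the members on which the results turn, the stretch upstream of the transcription start is printed for Col18a1, the member that rose, for Col7a1, the most abundant member, and for X-linked and autosomal pairs of type IV genes that face away from each other. Sequences are from the RefSeq promoter table of GRCm38.p6, read 5′ to 3′ on the strand of the gene, in lower case and without annotated exon bases. Capitals mark matches on either strand to 4 short motifs. The GC box was searched as GGGCGG and the CCAAT box by the letters of its name. The TATA box was searched as TATAAA, and the site of the AP-1 factors as TGANTCA. None of the matches printed here overlap. For Col18a1 the table has windows at 2 starts, and the one shown is the upstream start. The stretch of Col18a1 lies at chr10:77166549-77166780 on the minus strand, that of Col7a1 at chr9:108953336-108953585 on the plus strand, that of Col4a6 at chrX:141474077-141474326 on the minus strand and that of Col4a5 at chrX:141475169-141475384 on the plus strand. The last stretch, at chr1:82586850-82586920 on the minus strand, is the whole spacer between the starts of Col4a4 and Col4a3.
Col18a1: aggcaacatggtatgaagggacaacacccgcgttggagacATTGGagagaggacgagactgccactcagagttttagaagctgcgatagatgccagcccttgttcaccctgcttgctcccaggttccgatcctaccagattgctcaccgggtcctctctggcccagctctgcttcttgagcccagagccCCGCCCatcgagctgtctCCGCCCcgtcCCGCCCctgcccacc
Col7a1: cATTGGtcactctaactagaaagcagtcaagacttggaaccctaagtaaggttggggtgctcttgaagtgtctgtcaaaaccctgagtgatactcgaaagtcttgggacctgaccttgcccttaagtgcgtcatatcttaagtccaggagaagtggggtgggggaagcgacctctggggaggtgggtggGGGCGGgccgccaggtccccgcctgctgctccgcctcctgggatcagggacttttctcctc
Col4a6: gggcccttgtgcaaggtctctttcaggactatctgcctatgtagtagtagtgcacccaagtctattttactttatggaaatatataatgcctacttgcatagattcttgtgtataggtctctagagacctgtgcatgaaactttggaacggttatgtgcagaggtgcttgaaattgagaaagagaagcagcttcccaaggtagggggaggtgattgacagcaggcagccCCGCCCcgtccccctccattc
Col4a5: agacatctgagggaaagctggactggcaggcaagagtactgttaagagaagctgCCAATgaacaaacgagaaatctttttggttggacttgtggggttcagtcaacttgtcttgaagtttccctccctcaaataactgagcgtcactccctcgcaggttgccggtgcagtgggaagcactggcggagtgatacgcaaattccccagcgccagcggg
Col4a4 to Col4a3 spacer: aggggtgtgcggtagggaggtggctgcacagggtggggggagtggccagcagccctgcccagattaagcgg

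The Col18a1 stretch of 232 bases holds 3 GC boxes and 1 CCAAT box. In the same stretch of all 32851 promoter windows of the table, 30.1% hold a GC box and 32.4% a CCAAT box. In the 250 bases before the start, the table has windows for 34 of the 43 members. Of these, 21 hold a GC box, against 32.7% of all windows, 12 a CCAAT box (33.8%), 4 a TATA box (12.4%) and 1, Col6a1, an AP-1 site (6.75%). The 34 members have 37 windows. A member counts with a match in any of its windows, while the percentages are per window. The spacer of 71 bases between Col4a4 and Col4a3 holds none of these letters, where 20.7% of all windows hold a GC box in the 71 bases before the start. A match of letters is a description of this window and not a site of binding.

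Collagen transcripts of the epidermal suspension were mostly those of the basement membrane zone. The 9 basement membrane collagens supplied 69.2% of the summed collagen FPKM, the 23 others 21.2% and the 11 fibrillar collagens 9.58%. Col7a1 alone, with 30.2% of the sum, had the highest level, followed by Col18a1, Col4a1, the fibril-surface collagens Col16a1 and Col12a1, then Col4a5, Col4a2, Col5a2, Col27a1 and Col4a6. These 10 genes had a mean of at least 10 FPKM over the 6 libraries and together made up 90.0% of the sum. Collagen FPKM came to 0.0354% to 0.0541% of all FPKM per library. Col17a1, the hemidesmosomal collagen that was left out, reached a mean of 322 FPKM, 0.954 times the sum of all 43 members.

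Of the 43 members, 21 had a mean of at least 1 FPKM, and the same 21 passed the filter on low values. Each of these reached 1 FPKM in at least 1 library of both groups. In the order of mean levels, Col7a1 stood apart from Col18a1 and Col4a6 from Col8a1, with ranges over the 6 libraries that did not overlap. The other 18 of 20 neighbouring pairs in that order had overlapping ranges, so their order is not resolved by the spread between libraries. The remaining 22 members supplied 0.98% of the sum, and only Col20a1 reached 1 FPKM in any of the 6 libraries (1.17 FPKM in control replicate 3).

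**Figure D1:**
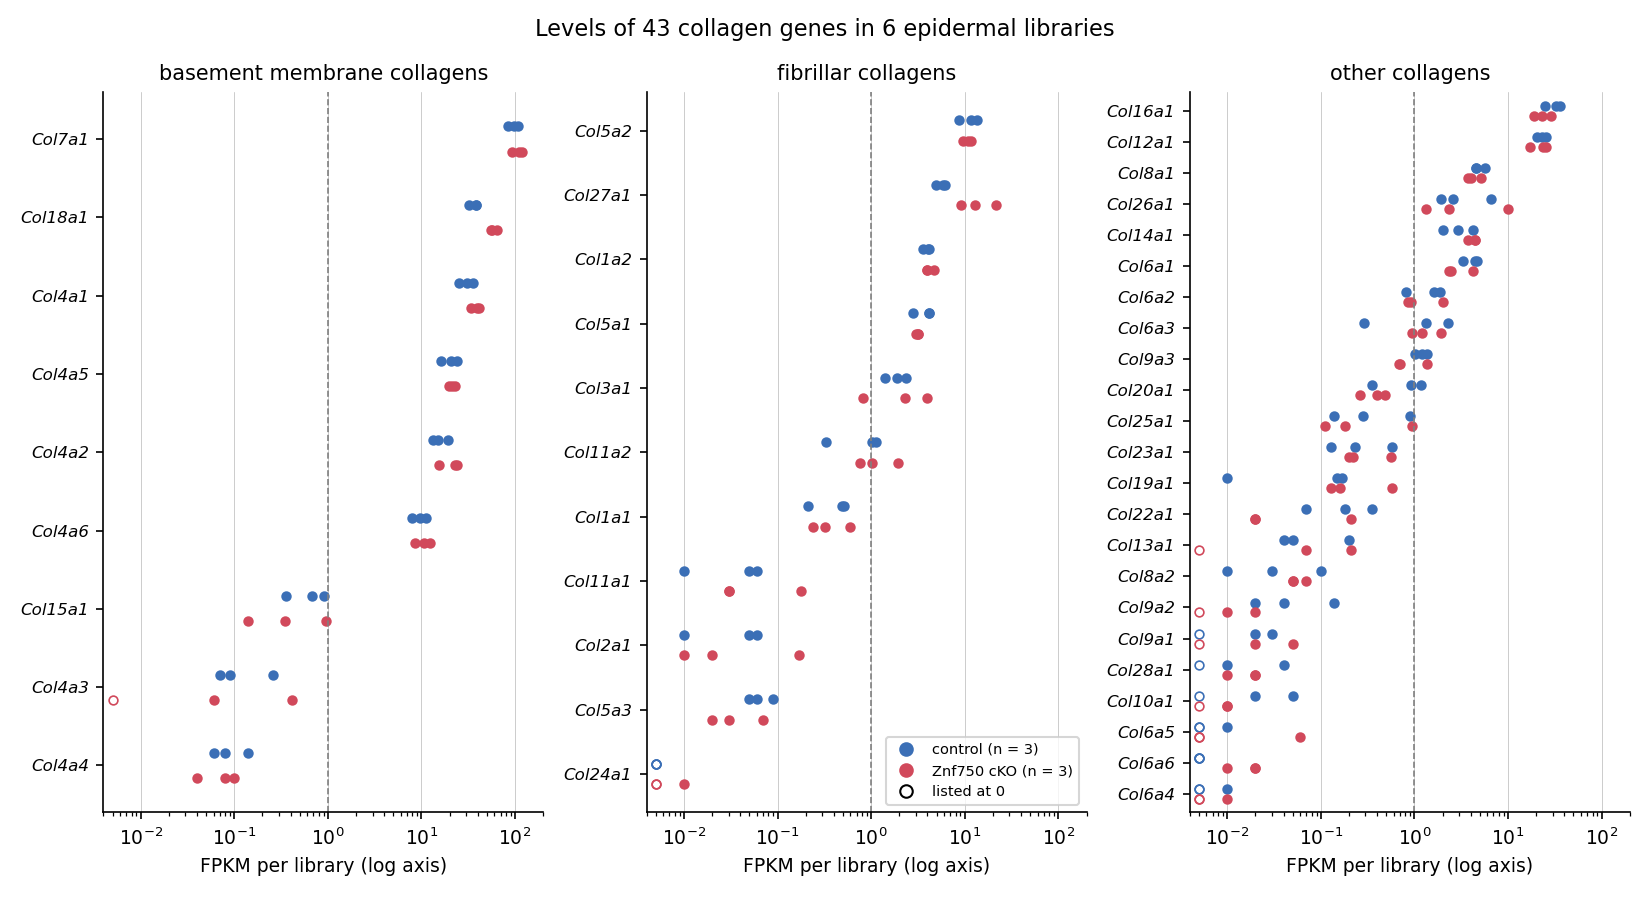
FPKM of each of the 43 collagen genes in each library (log axis), by class and ordered by mean level, with control in blue and Znf750 cKO in red. Open circles mark values listed at 0 and the dashed line marks 1 FPKM. Col7a1 lies highest, between 84.1 and 119 FPKM, and 21 of the 43 genes stay under 1 FPKM in every library.

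Between the groups, 1 of the 21 tested members rose and 0 fell. In the same limma test 1.11% of all tested genes rose and 3.1% fell. At an unadjusted p under 0.05 there were 2 members, Col18a1 and Col27a1, where 21.3% of all tested genes had such a p. The same 2 were the tested members whose groups did not overlap, against 28% of tested genes. The median log2 change of the 21 was 0.08, beside -0.08 over all genes tested, and 13 were positive against 37.8% of all genes. Under median-ratio scaling 15 of the 21 were positive against 50.1% of all genes, with medians of 0.16 and 0.0004. Without Znf750 cKO replicate 3 the median of the 21 was -0.0016, with 10 positive. In bulk RNA, fewer cells of a type and less RNA per cell cannot be told apart.

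**Figure D2:**
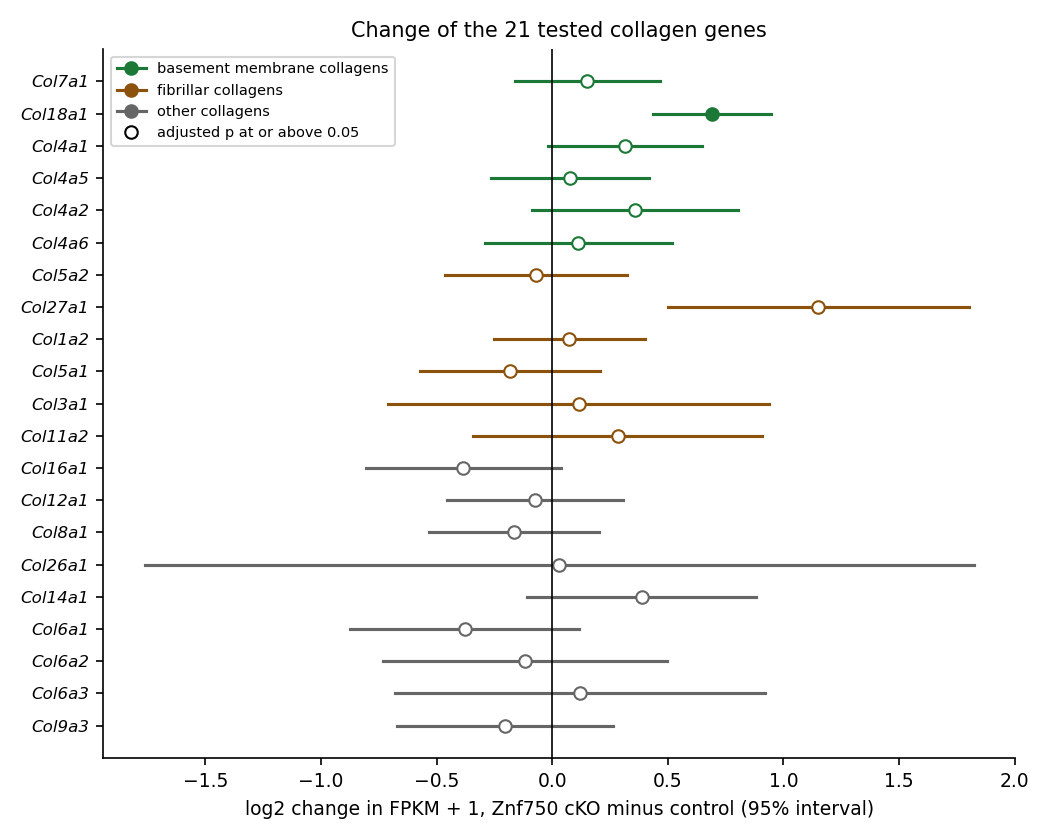
Log2 change of the 21 tested collagen genes, Znf750 cKO minus control, with 95% intervals from the moderated limma fit, coloured by class. The filled point is Col18a1, the member that passed, at 0.69. The rightmost point is Col27a1 at 1.15, and the interval of Col26a1 runs from -1.76 to 1.82.

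Col18a1 encodes the chain of type XVIII collagen, a basement membrane proteoglycan whose carboxy-terminal fragment is endostatin. The gene (ENSMUSG00000001435) spans chromosome 10, 77052178 to 77166548, minus strand, GRCm38. Its level was 37.9, 32.1 and 38.2 FPKM in control and 64.1, 55.3 and 56.9 FPKM in Znf750 cKO. The lowest knockout library stood above the highest control library. Col18a1 rose from 36.1 ± 3.44 to 58.8 ± 4.71 FPKM (means with SD, 3 libraries each), 1.63-fold, with a log2 change of 0.69 (SE 0.11, 95% interval 0.43 to 0.95, limma adjusted p = 0.018). With the replicate number as a block the adjusted p was 0.035. The call was lost in limma without control replicate 1 (adjusted p = 0.053), without control replicate 2 (0.063) and without Znf750 cKO replicate 1 (0.086), with log2 changes of 0.73, 0.61 and 0.63, and held without each of the other 3 libraries. GENCODE lists 5 transcripts for the gene, and a value per gene does not tell them apart.

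Col7a1, whose product forms the anchoring fibrils, had control values of 96.7, 84.1 and 109 FPKM and knockout values of 119, 110 and 92.9 FPKM. The groups overlapped, and Znf750 cKO replicate 3 lay below 2 of the 3 controls. Its log2 change was 0.15 (SE 0.14), with a 95% interval from -0.16 to 0.46 and a limma adjusted p of 0.58. The gene lies on chromosome 9, 108953586 to 108984875, plus strand. The level rests on an estimated 16677 to 38957 reads per library.

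The type IV chains divide into pairs of genes that share a start region. Col4a1 and Col4a2 lie head to head on chromosome 8, with annotated exons that share 22 bases on opposite strands. Col4a6 and Col4a5 lie head to head on the X chromosome with 1308 bases between them, and Col4a4 and Col4a3 on chromosome 1 with 71 bases between them. The chains of Col4a1 and Col4a2 build the network found in nearly all basement membranes, those of Col4a5 and Col4a6 a network found beside it in skin, and those of Col4a3, Col4a4 and Col4a5 the network of the kidney filter.

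Col4a1 had 35.7, 25.1 and 31.0 FPKM in control and 38.9, 34.1 and 41.2 FPKM in Znf750 cKO. Col4a2 had 19.3, 13.2 and 14.9 FPKM in control and 23.8, 15.6 and 22.6 FPKM in Znf750 cKO. In both genes the control and knockout libraries overlapped, and the log2 changes were 0.32 (SE 0.14, 95% interval -0.02 to 0.65, limma adjusted p = 0.26) and 0.36 (SE 0.19, -0.09 to 0.81, adjusted p = 0.34). Col4a5 had 23.9, 16.3 and 20.5 FPKM in control and 22.6, 21.4 and 19.4 FPKM in Znf750 cKO. Col4a6 had 11.3, 7.86 and 9.59 FPKM in control and 12.3, 8.44 and 10.7 FPKM in Znf750 cKO. Their log2 changes were 0.08 and 0.11, with intervals from -0.26 to 0.42 and from -0.29 to 0.52. Col4a3 and Col4a4 stayed at or under 0.41 and 0.14 FPKM, so the pair on chromosome 1 was near the floor in all 6 libraries. Col4a3 also shares 563 exon bases with C430014B12Rik on the opposite strand, and reads from that shared stretch cannot be assigned to either gene, since no strand setting is given.

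The ratio of paired chains was taken within each library. Col4a1 stood at 1.64 to 2.19 times Col4a2 over the 6 libraries (1.94 ± 0.12 in control and 1.88 ± 0.28 in Znf750 cKO, mean ± SD, n = 3). Col4a5 stood at 1.83 to 2.54 times Col4a6 (2.11 ± 0.03 and 2.07 ± 0.41). The type I chains, which lie on different chromosomes and whose protein holds a pair of alpha 1 chains with 1 alpha 2 chain, went the other way from that protein ratio. Col1a2 exceeded Col1a1 6.63 to 19.7 times per library, with Col1a1 at only 0.21 to 0.59 FPKM. Ratios in so small a range were not particular to genes that share a start region, since Col17a1 stood at 6.07 to 8.15 times Col18a1, which lies on another chromosome.

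**Figure D3:**
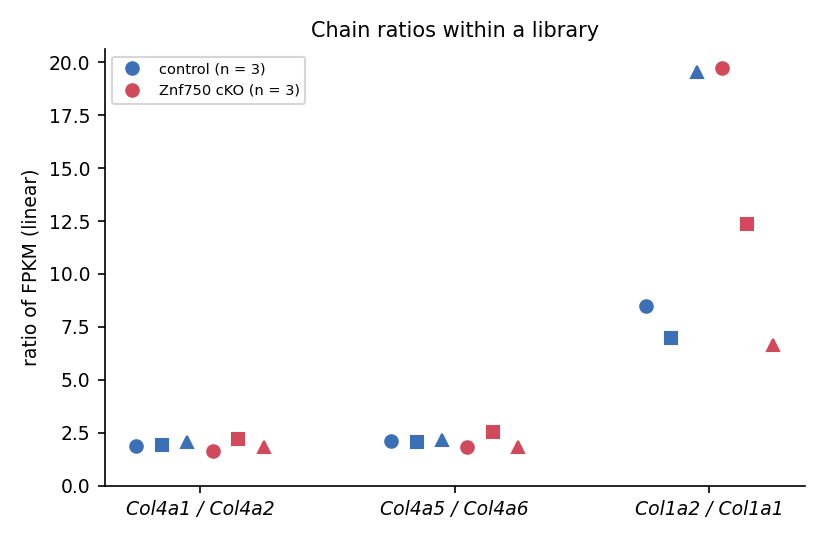
Ratio of FPKM of paired chains in each library on a linear axis, with circles, squares and triangles for replicates 1, 2 and 3. Col4a1 over Col4a2 and Col4a5 over Col4a6 lie between 1.64 and 2.54 in all 6 libraries, and Col1a2 over Col1a1 between 6.63 and 19.7.

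Col15a1, the other proteoglycan collagen of the class, had 0.91, 0.36 and 0.68 FPKM in control and 0.14, 0.35 and 0.95 FPKM in Znf750 cKO and was not tested. The log2 changes of all 6 tested basement membrane collagens were positive, with a median of 0.23, where 37.8% of all tested genes were positive. Control replicate 2 was the lowest library for each of the 6. Under the 3 other scalings 6 of 6 stayed positive, with 5 of 6 without Znf750 cKO replicate 1 and 4 of 6 without control replicate 2. Their summed FPKM was 226, 179 and 224 in control and 281, 245 and 245 in Znf750 cKO for the whole class. The control and knockout sums did not overlap, with means of 210 ± 26.2 and 257 ± 20.9 FPKM, a ratio of 1.23 that was not tested.

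Among fibrillar collagens, the dermal types I and III were low. Col1a1, the main chain of dermal type I fibres, had 0.49, 0.51 and 0.21 FPKM in control and 0.24, 0.32 and 0.59 FPKM in Znf750 cKO, an estimated 29 to 82 reads per library. Col1a2, the partner chain, had 4.15, 3.56 and 4.10 FPKM in control and 4.73, 3.96 and 3.91 FPKM in Znf750 cKO. Col3a1, of the type III fibres of young skin, had 1.90, 2.37 and 1.39 FPKM in control and 0.82, 2.32 and 3.91 FPKM in Znf750 cKO. None of these showed separate groups. Col1a2 had a log2 change of 0.07 (95% interval -0.25 to 0.40) and Col3a1 of 0.12 (-0.71 to 0.94), with limma adjusted p of 0.83 and 0.91. Without Znf750 cKO replicate 3 the log2 change of Col3a1 was -0.22.

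The type V chains sit inside type I fibrils and set their width. Col5a2 had the highest fibrillar mean over the 6 libraries, although Col27a1 had the higher mean in Znf750 cKO. Col5a2 had 13.7, 8.65 and 11.8 FPKM in control and 11.6, 10.8 and 9.56 FPKM in Znf750 cKO. Col5a1 had 4.16, 4.18 and 2.81 FPKM in control and 3.14, 3.17 and 3.04 FPKM in Znf750 cKO. The groups overlapped in both, and the log2 changes were -0.07 (SE 0.17) and -0.18 (SE 0.17). That of Col5a2 was 0.0114 under median-ratio scaling. Col5a2 lies tail to tail with Col3a1 on chromosome 1 with 24614 bases between them. Col11a2, a chain of type XI fibrils, had 0.33 to 1.13 FPKM in control and 0.76 to 1.93 FPKM in Znf750 cKO.

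Col27a1, a fibrillar collagen best known from cartilage, had the largest log2 change of the 21 tested members. It had 6.20, 4.93 and 5.84 FPKM in control and 12.9, 9.19 and 21.6 FPKM in Znf750 cKO. All knockout libraries stood above all controls, with replicate 3 far above the other two. The means were 5.66 ± 0.65 and 14.6 ± 6.35 FPKM, 2.57-fold, with a log2 change of 1.15 (SE 0.28, 95% interval 0.50 to 1.80). It missed the threshold at a limma adjusted p of 0.068, and 0.057 with the block. Without Znf750 cKO replicate 2 it passed (log2 change 1.42, adjusted p = 0.035), and without Znf750 cKO replicate 3 the log2 change was 0.84 (adjusted p = 0.060). The gene spans chromosome 4, 63214004 to 63334991, plus strand.

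Summed fibrillar FPKM was 31.8, 24.7 and 27.4 in control and 34.5, 30.7 and 44.8 in Znf750 cKO, and the groups overlapped. Of the 11 fibrillar members 6 were tested and 0 passed. Col1a1, Col2a1, Col5a3, Col11a1 and Col24a1 stayed under 1 FPKM in every library. Col2a1, the collagen of cartilage, was at or under 0.17 FPKM, and Col24a1 was listed at 0 in all libraries but Znf750 cKO replicate 2.

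**Figure D4:**
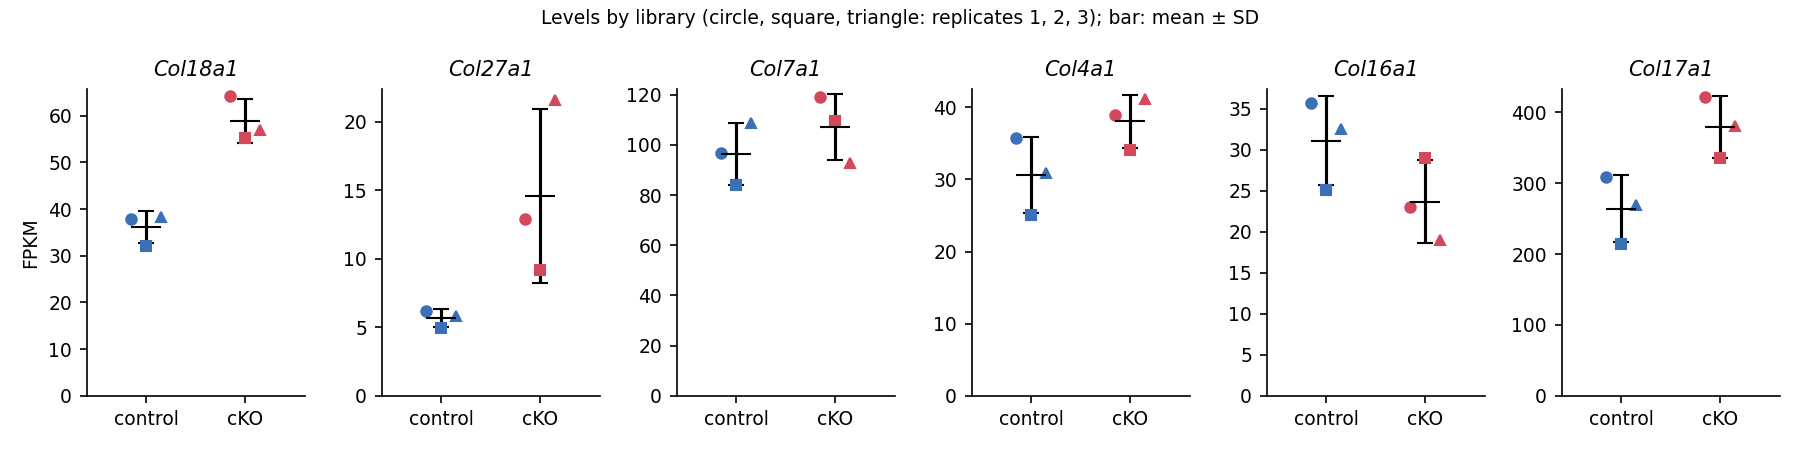
FPKM per library of 5 members and of Col17a1 in control (blue) and Znf750 cKO (red), with the mean and SD of 3 libraries and axes that start at 0. The groups do not overlap for Col18a1, Col27a1 and Col17a1, and overlap for Col7a1, Col4a1 and Col16a1.

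Summed FPKM of the other collagens was 81.7, 67.1 and 79.7 in control and 65.1, 62.6 and 73.8 in Znf750 cKO, with overlapping groups, and 0 of 9 tested members passed. The class split into 10 genes that reached 1 FPKM in some library and 13 that did not. Col16a1 and Col12a1, which lie on the surface of fibrils and link them to their surroundings, were the most abundant. Col16a1 had 35.7, 25.1 and 32.5 FPKM in control and 23.0, 29.0 and 19.0 FPKM in Znf750 cKO. The groups overlapped, and its log2 change of -0.38 (SE 0.18, 95% interval -0.81 to 0.04) was the lowest of the 21 tested members (limma adjusted p = 0.28). Col12a1 had 23.1, 20.7 and 25.7 FPKM in control and 23.9, 17.02 and 25.6 FPKM in Znf750 cKO. Its log2 change was -0.07 with an interval from -0.45 to 0.31, and 0.0098 under median-ratio scaling. Col14a1, of the same surface family, had 2.01 to 4.24 FPKM in control and 3.74 to 4.45 FPKM in Znf750 cKO.

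Type VI collagen forms beaded filaments of connective tissue. Col6a1 had 4.72, 4.39 and 3.34 FPKM in control and 2.33, 2.49 and 4.24 FPKM in Znf750 cKO (log2 change -0.38, SE 0.21, limma adjusted p = 0.36). Its partners Col6a2 and Col6a3 lay between 0.82 and 2.03 FPKM and between 0.29 and 2.27 FPKM, with overlapping groups. Col6a4, Col6a5 and Col6a6, which lie next to each other on chromosome 9, did not exceed 0.06 FPKM. Col6a6 was listed at 0 in all 3 control libraries and at 0.02, 0.02 and 0.01 FPKM in Znf750 cKO, at most an estimated 6 reads.

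Col26a1 varied more within the groups than between them. It had 1.92, 2.57 and 6.59 FPKM in control and 2.32, 1.33 and 9.90 FPKM in Znf750 cKO, with the third replicate highest in both groups. Its log2 change of 0.03 has an interval from -1.76 to 1.82, which spans several-fold changes in both directions. Col8a1, a short-chain collagen, had 4.53 to 5.71 FPKM in control and 3.75 to 5.15 FPKM in Znf750 cKO. Col9a3, a chain of a surface collagen of cartilage fibrils, had 1.01 to 1.37 and 0.69 to 1.38 FPKM, and shares 234 exon bases with Tcfl5 on the opposite strand.

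The 22 untested members differed in which library was highest. Of them, 8 were highest in Znf750 cKO replicate 3, among them Col1a1, Col4a3, Col15a1 and Col25a1, and 1 to 5 in each of the other libraries. Among the 21 tested members 6 were highest in that library, where 18.2% of all tested genes were. The share among all untested genes was not computed. Znf750 cKO replicate 3 also had the most genes above 0, with 29087 against 24045 to 27911 in the other libraries. Col25a1, a membrane-bound collagen of neurons and muscle, reached 0.90 FPKM in control replicate 3 and 0.94 FPKM in Znf750 cKO replicate 3 and at most 0.28 FPKM elsewhere. The hypertrophic cartilage collagen Col10a1 and the chains Col9a1, Col9a2, Col28a1, Col8a2, Col11a1 and Col5a3 were at or under 0.18 FPKM in every library.

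Marker lists were read beside the fibrillar and type VI values. Of 19 fibroblast markers other than collagens, 14 were under 1 FPKM in every library, among them Pdgfra (0.12 to 0.55 FPKM), Pdgfrb (at most 0.09), Lum and Dpt, and Mfap5 was listed at 0 in all 6. Dcn stood out with 105 to 164 FPKM, Vim with 73.3 to 265, Mmp2 with 9.63 to 20.8, and Thy1 and Fstl1 with 4.52 to 11.2. The summed list ran from 326 to 452 FPKM in control and from 236 to 286 FPKM in Znf750 cKO. Within it, Vim alone ran from 151 to 265 FPKM in control and from 73.3 to 99.8 FPKM in Znf750 cKO. The sum without Vim was not computed. In limma 0 of the 5 tested members of the list passed. Of these 5, only Vim had control and knockout libraries that did not overlap, against 28% of all tested genes. Dcn, the most abundant member, had a log2 change of -0.04. Vim, an intermediate filament of many cells other than keratinocytes, stood at 193 ± 62.6 FPKM in control and 89.1 ± 14.01 FPKM in Znf750 cKO (limma adjusted p = 0.052).

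Of 10 endothelial markers, 8 were under 1 FPKM everywhere, Cdh5 and Kdr among them, and Pecam1 reached 5.46 to 31.1 FPKM. Of 9 mural markers 6, of 10 skeletal muscle markers 7, of 7 cartilage markers 6, of 8 adipocyte markers 6 and of 10 dermal papilla markers 7 were under 1 FPKM everywhere. Their most abundant members were Notch3 (10.2 to 13.8 FPKM), Tnni2 (6.45 to 10.1), Sox9 (7.47 to 10.8), Cebpa (83.2 to 109) and Prdm1 (2.70 to 7.66). Of the adipocyte list Fabp4 rose, from 0.36 to 7.63 FPKM, and it passed the filter only through the knockout libraries. Melanocyte markers were present, with Dct highest at 40.9 to 74.5 FPKM, and 0 of 8 passed, and of 8 Schwann cell markers 4 were tested and 0 passed, with Erbb3 highest at 22.0 to 44.5 FPKM.

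Leukocyte markers moved with the groups. Of 8 tested, 6 fell, where 3.1% of all tested genes fell. The summed list of 11 ran from 77.3 to 134 FPKM in control and from 11.5 to 20.9 FPKM in Znf750 cKO, with Tyrobp the most abundant member. Lyz2, among the 6, passed the filter only through the control libraries, and Fcer1g, also among them, had a limma adjusted p of 0.043 and a blocked one of 0.090. The part of leukocytes or of fibroblasts in the collagen values was not tested. Keratinocyte markers were the most abundant of the lists, with Krt5 at 6275 to 6973 FPKM and Krt10 at 7397 to 14585 FPKM. Of the 6 basal markers Itgb4 rose, and of the 6 suprabasal markers 0 passed.

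**Figure D5:**
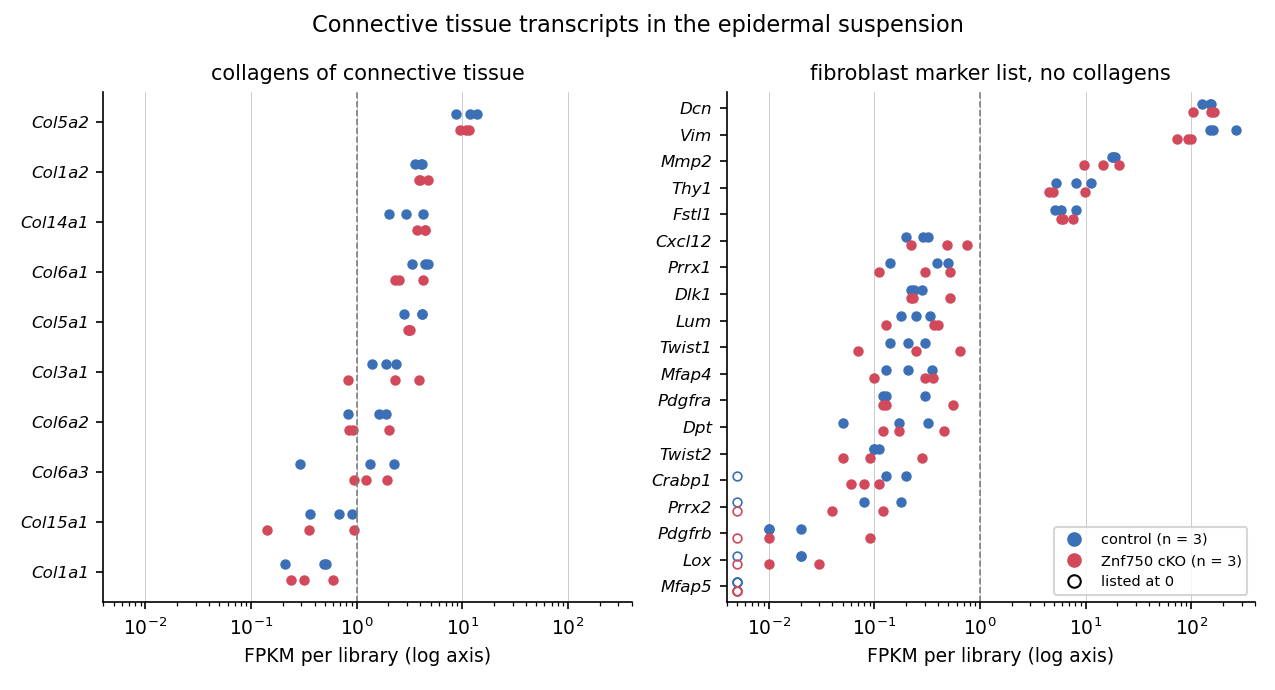
FPKM per library (log axis) of 10 collagens of connective tissue and of 19 fibroblast markers that are not collagens, control in blue and Znf750 cKO in red, open circles listed at 0. Of the markers, 14 stay under the dashed line at 1 FPKM, while Dcn lies between 105 and 164 FPKM and Vim between 73.3 and 265 FPKM.

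The other genes of the collagen pathway were taken from 7 lists that hold 109 genes, of which 64 were tested, 4 rose and 1 fell, with a median log2 change of 0.10. Over all tested genes 1.11% rose and 3.1% fell. In the fit with the replicate block 8 of the list genes rose and 0 fell, where 0.994% of all tested genes rose. Of 17 tested genes of folding and hydroxylation, P4ha1 rose, and 16 did not pass. P4ha1, a catalytic subunit of prolyl 4-hydroxylase, had 10.1, 8.22 and 8.38 FPKM in control and 15.0, 17.9 and 19.1 FPKM in Znf750 cKO. It rose 1.95-fold (log2 change 0.89, SE 0.13, limma adjusted p = 0.016, blocked 0.046). With any 1 library omitted it was still called in 4 of 6 fits. P4ha2, another catalytic subunit, had 4.41 to 10.2 FPKM in control and 2.71 to 7.08 FPKM in Znf750 cKO, with overlapping groups. The shared subunit P4hb, the most abundant of the list, stood at 187 ± 5.17 and 178 ± 15.4 FPKM, and the collagen chaperone Serpinh1 at 59.6 ± 7.92 and 56.2 ± 3.37 FPKM.

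Procollagen processing and crosslinking genes were few. Bmp1, which removes the carboxy-terminal propeptide, led with 31.5 to 38.8 FPKM, and 0 of 4 tested genes passed. The lysyl oxidases Lox, Loxl1, Loxl3 and Loxl4 were under 1 FPKM in every library. Of 6 tested genes of collagen breakdown 0 passed, with the membrane collagenase Mmp14 highest at 49.3 to 80.3 FPKM. Of 9 tested fibril-associated proteins 0 passed, with periostin, Postn, highest at 167 to 235 FPKM.

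Among 6 tested collagen receptors, Itgb1 rose and Mrc1 fell. Itgb1, the beta chain shared by the collagen-binding integrins and by a laminin receptor, had 82.9, 64.7 and 75.5 FPKM in control and 130, 115 and 150 FPKM in Znf750 cKO (log2 change 0.81, limma adjusted p = 0.021). With any 1 library omitted it was still called in 3 of 6 fits. Mrc1, an endocytic receptor of macrophages that takes up collagen, had 4.57, 1.79 and 1.45 FPKM in control and 0.24, 0.16 and 0.18 FPKM in Znf750 cKO (log2 change -1.50, limma adjusted p = 0.039, blocked 0.054). It was still called in 1 of 6 such fits, passed the filter only through the control libraries, and moved with the leukocyte markers above. Itga2, the collagen-binding alpha chain of keratinocytes, stood at 4.14 ± 1.14 and 7.23 ± 2.02 FPKM (limma adjusted p = 0.16, blocked 0.0497).

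Of 17 tested laminins and other basement membrane proteins, Lama5 rose and 16 did not pass, with a median log2 change of 0.17. Lama5, a laminin alpha chain of basement membranes, had 71.1, 67.8 and 79.7 FPKM in control and 127, 131 and 137 FPKM in Znf750 cKO. It rose 1.81-fold (log2 change 0.85, SE 0.10, limma adjusted p = 0.0062, blocked 0.021), and was called in all 6 fits with 1 library omitted.

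Col17a1, the transmembrane collagen of hemidesmosomes, had 309, 214 and 269 FPKM in control and 422, 336 and 380 FPKM in Znf750 cKO. The groups did not overlap, and the log2 change was 0.53 (SE 0.16, 95% interval 0.17 to 0.89). It had a limma adjusted p of 0.11, and 0.048 with the replicate number as a block. Without control replicate 2 its log2 change was 0.39 (limma adjusted p = 0.25). Of the 6 hemidesmosome genes Itgb4, which pairs with Itga6, rose (log2 change 0.67, limma adjusted p = 0.044), and the call was lost whichever library was omitted (0 of 6 fits). In the fit with the replicate block 4 of the 6 rose, where 0.994% of all tested genes rose. Their limma adjusted p in that fit were 0.035 for Itgb4, 0.044 for Itga6, 0.042 for Plec and 0.048 for Col17a1. Control replicate 2 was the lowest library for all 6 hemidesmosome genes.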

How the data were processed

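Each of 6 deposited files holds 1 FPKM value for each of 55487 Ensembl genes, per the file headers. Per the submitters' processing notes, the authors used STAR 2.5.2a and RSEM 1.2.28, with Trim Galore 0.4.5 and cutadapt 1.15 and DESeq2 also listed. The builds named there are mm10 and GRCm38, and the notes give the tools no role. Per the labels' protocols, libraries were poly(A)-selected and read as single reads of 100 nucleotides. The kit is not stated to mark strand, and no cell sort is named.

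Symbols were matched for 55141 identifiers, and coordinates came from GENCODE M21 (GRCm38), which holds all 43 members and 99.5% of the identifiers. Genes with at least 1 FPKM in at least 3 libraries were fitted with limma 3.58.1 (R 4.3.3, statmod 1.5.0) on log2(FPKM + 1), a pseudocount of 1, with an intensity trend, robust variances and group as the only term. This scale understates changes of low genes. P-values were adjusted over all 13688 tested genes. The procedure was tested on simulated data with known changes. Figures used Python 3.11.15 and matplotlib 3.10.9.

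Depth was estimated from steps in the values of genes with a single transcript of 300 to 800 bases. At the best step, 73.2% to 79.7% of values lay at most 0.1 read from a whole read count, where chance gives 20%. Read numbers printed for a gene use its longest transcript, are estimates and entered no test.

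Libraries with the same replicate number correlated across genes, after group means were taken off, at 0.31, 0.17 and 0.48. All exceed 0.1, so the numbers were treated as pairs in a blocked fit run beside the main one. Control replicate 1 with Znf750 cKO replicate 2, a pair of unlike number, also exceeded it. That pair stood at 0.24, above the 0.17 of the replicates numbered 2. The other pairs of unlike number lay between -0.39 and -0.04. What a replicate number marks is not stated in the labels, so the pairing comes from these correlations.

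The members and gene lists were chosen with earlier results of these data known. The genes named are members with a mean of at least 1 FPKM, and from each list the most abundant member, those past the threshold and markers listed at 0. A gene that this rule names is not reported here. Others were named after their values were seen.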

Additional observations from a re-analysis of the deposited data

How the results depend on the processing

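The counts over all genes, collagen members and pathway genes, and the log2 changes of the 21 tested members, were recomputed under 16 alternatives. Counts in the marker lists were not. The count of 577 genes fell to 85 with every gene above 0 tested and to 382 with a mean of at least 0.5 FPKM required, which widen the set of genes tested, and ran from 100 to 356 with any 1 library left out. The count of collagen members called was 1, and 0 with every gene above 0 tested, where the adjusted p of Col18a1 was 0.092, 0 without replicate 3 of both groups (0.051), and 0 to 2 with any 1 library left out. It stayed at 1 under both other pseudocounts, the 3 scalings, the replicate block and limma without trend or robust variances, with Col18a1 as the member in each. The count of collagen pathway genes was 5. It was 1 with every gene above 0 tested, 3 with a mean of at least 0.5 FPKM, 8 with the replicate block, 3 without trend or robust variances, 2 without replicate 3 of both groups, and 1 to 3 with any 1 library left out.

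The replicate block changed the call of 0 of the 21 tested members. Signs turned for 8 members near 0, none past the threshold in any fit. With median ratios Col12a1 had a log2 change of 0.0098 and Col5a2 of 0.0114, and with a pseudocount of 0.1 Col26a1 had -0.0201. Without replicate 3 of both groups Col5a2 had 0.0339, Col26a1 -0.2152, Col3a1 -0.3468 and Col6a3 -0.4109. With any 1 library left out, the log2 change ran from -0.1849 to 0.0963 for Col12a1, from -0.0616 to 0.199 for Col4a5, from -0.2382 to 0.0629 for Col5a2 and from -0.0084 to 0.2466 for Col4a6. It ran from -0.6262 to 0.4867 for Col26a1, from -0.2177 to 0.4982 for Col3a1, from -0.3455 to 0.0159 for Col6a2 and from -0.2463 to 0.4247 for Col6a3. The summed FPKM of each class kept its direction under each scaling, without its most abundant member and without any 1 library. The omission of single libraries was added after seeing the data. Each log2 ratio of sums moved by less than the square root of the summed variances of the log2 sums within the groups. For the fibrillar class the ratio was 0.39, and 0.65 without Col5a2. It was not recomputed without Col27a1. That gene had means of 5.66 FPKM in control and 14.6 FPKM in Znf750 cKO, beside class sums of 27.9 and 36.7 FPKM. The 22 untested members did not reach 1 FPKM in at least 3 libraries. Their levels rest on at most an estimated 145 reads per library, the highest value of Col25a1.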
